A study of Mus musculus with 14 samples.

Results

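The small leucine-rich proteoglycans are a family of secreted matrix proteins, and 8 of their genes were followed here by name: Dcn (decorin), Bgn (biglycan), Aspn (asporin), Lum (lumican), Fmod (fibromodulin), Prelp, Omd (osteomodulin) and Ogn (osteoglycin, also called mimecan). All 8 were listed in the files, among 35449 genes. Their reads were counted in 14 primary mouse cell lines started from E13.5 embryos, with 1 library a line made by a method that reads the 3′ ends of polyadenylated transcripts. The groups were 5 H3f3a KO and 3 WT lines of embryonic fibroblasts (MEFs), grown from the body after the head and internal organs had been taken off, and 3 H3f3a KO and 3 WT neurosphere lines, which are cultures of neural stem and precursor cells from the head. H3f3a encodes the histone variant H3.3, the KO allele is of the knockout-first kind according to the series title, and the labels name no treatment in any group. The labels call the groups KO and WT without naming a strain, and give no embryo, litter or sex for a line. The series text calls the lines independent, and p-values measure the spread between these lines.

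These proteins share a core built of leucine-rich repeats, with which they bind collagen fibrils and control their thickness and spacing. Most also carry chondroitin, dermatan or keratan sulfate chains, and several hold growth factors such as TGF-β near the cell surface. Decorin, biglycan and asporin form class I of the family, lumican, fibromodulin, PRELP and osteomodulin belong to class II, and osteoglycin to class III. They are typical products of fibroblasts, tendon, bone, cartilage and cornea, while the matrix of the embryonic brain is built mainly from other proteoglycans.

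Several members lie side by side in the mouse genome, which frames the results on the lines below. On chromosome 13 of GRCm38, in the GENCODE M21 annotation, Aspn (chr13:49544443-49567565), Omd (chr13:49582462-49592822) and Ogn (chr13:49608046-49624501) follow each other on the plus strand. The gaps are 14.9 kb between Aspn and Omd and 15.2 kb between Omd and Ogn, and the related gene Ecm2 ends 11.7 kb before Aspn. The antisense gene Cenpp spans all 3 but shares exon sequence with Aspn alone. Dcn (chr10:97479609-97518143) and Lum (chr10:97565128-97572703) are 47.0 kb apart, Prelp (chr1:133910304-133921414, minus strand) and Fmod (chr1:134037254-134048277) are 116 kb apart with opposite strands, and Bgn (chrX:73483602-73495933) lies on the X chromosome. Promoter sequence was found in the RefSeq table for 6 of the 8 genes, that is, for all but Dcn and Lum. The 250 bases before the RefSeq start are printed for Ogn, Omd and Aspn, neighbours whose levels differed in how they varied between lines, and for Bgn, whose level varied least. Capitals mark any match, on either strand, to 6 motifs: the letters TATAAA of the TATA box, the letters CCAAT of the box of that name, the letters GGGCGG of the GC box, the letters CANNTG of the E-box, the letters TGANTCA of the AP-1 site, and the letters TTTATNG, which posterior HOX proteins can bind.
Ogn, chr13:49607765-49608014 (+ strand): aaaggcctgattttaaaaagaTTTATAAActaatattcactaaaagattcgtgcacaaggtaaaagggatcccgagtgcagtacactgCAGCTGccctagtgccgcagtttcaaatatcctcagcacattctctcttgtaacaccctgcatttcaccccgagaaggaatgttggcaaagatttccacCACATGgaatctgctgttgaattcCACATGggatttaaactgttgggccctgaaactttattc
Omd, chr13:49582212-49582461 (+ strand): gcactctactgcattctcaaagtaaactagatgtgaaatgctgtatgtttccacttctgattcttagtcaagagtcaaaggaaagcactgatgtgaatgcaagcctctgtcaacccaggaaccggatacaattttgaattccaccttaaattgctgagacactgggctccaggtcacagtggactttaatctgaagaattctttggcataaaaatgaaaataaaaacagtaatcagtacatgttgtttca
Aspn, chr13:49544193-49544442 (+ strand): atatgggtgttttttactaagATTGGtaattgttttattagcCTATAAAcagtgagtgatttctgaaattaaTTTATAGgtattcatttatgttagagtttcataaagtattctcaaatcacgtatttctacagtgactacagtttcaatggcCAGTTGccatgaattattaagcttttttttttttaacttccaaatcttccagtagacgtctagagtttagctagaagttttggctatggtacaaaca
Bgn, chrX:73483351-73483600 (+ strand): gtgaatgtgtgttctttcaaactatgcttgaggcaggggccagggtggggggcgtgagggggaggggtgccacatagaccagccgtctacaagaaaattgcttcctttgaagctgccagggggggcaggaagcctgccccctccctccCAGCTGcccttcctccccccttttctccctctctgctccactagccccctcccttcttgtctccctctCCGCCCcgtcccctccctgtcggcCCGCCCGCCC

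These 4 windows differ in composition and hold different matches. The Ogn window was 42.0% G and C, had E-boxes 162, 63 and 39 bases before the start, and held 2 overlapping TATAAA matches, 229 and 227 bases before it. Its RefSeq start lies upstream of the GENCODE M21 start, so the window ends before the annotated transcript. The Omd window, at 38.4%, held none of the 6 motifs. In the Aspn window, at 30.0%, TATAAA and TTTATNG overlapped at both places where they occurred, near 207 and 178 bases before the start. The Bgn window was 64.4% G and C and held 3 GC boxes on the minus strand, of which those 10 and 6 bases before the start overlapped. TTTATNG also occurred in the Fmod window, 65 bases before the start, and in the Prelp window, 130 bases before it, and in 10.2% of the 27025 promoters of that length. The shares of all promoters with a match were 12.97% for TATAAA, 34.5% for CCAAT, 32.9% for GGGCGG, 66.0% for CANNTG and 6.87% for TGANTCA. A match is a description of letters, and no binding was measured.

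The libraries held 2080798 to 3296178 counts in MEFs and 1669406 to 2874677 in neurospheres. H3f3a itself was at 7.27 to 18.8 CPM (counts scaled to library size) in KO MEFs and 845 to 1420.1 CPM in WT MEFs, and at 26.2 to 70.7 CPM in KO neurospheres and 1964 to 2409 CPM in WT neurospheres, so every label fitted the targeted gene. The size factors for CPM come from all 14 libraries. Summed fibroblast markers (8 genes, among them Col1a1 and Pdgfra) ran from 13448 to 21295 CPM in MEFs and from 34.9 to 160 CPM in neurospheres, and summed neural stem markers (7 genes) from 47.0 to 168 CPM in MEFs and from 3747 to 6796 CPM in neurospheres. KO MEFs 3 and WT MEFs 2 stood apart from the other 6 MEF lines in several members, and WT neurospheres 1 held matrix transcripts that the other 5 neurosphere lines nearly lacked. In bulk RNA, fewer cells that express a gene and less of its RNA per cell cannot be told apart.

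Bgn had the highest deposited TPM of the members in every MEF line, and its level was nearly the same in all of them. Biglycan binds collagen and TGF-β and takes part in the mineralisation of bone. It had 706, 579.7, 799, 766 and 654 CPM in KO MEFs 1 to 5 and 685, 709.9 and 675 CPM in WT MEFs 1 to 3. The 3 WT values lay inside the KO range, and the highest line was 1.38 times the lowest. The SD of log2 CPM over the 8 MEF lines was 0.14, against a median of 0.34 over the 9921 genes with a mean of at least 5 CPM in MEFs, and 93.9% of these genes varied more. In CPM, which is not per length, Bgn led in 6 MEF lines and was below Ogn in KO MEFs 3 and WT MEFs 2. In TPM Bgn made up 45.3% to 81.7% of the summed TPM of the 8 members in KO MEFs and 37.5% to 75.5% in WT MEFs. TPM divides by transcript length, although reads of 3′ ends do not grow with length, so shares and orders of members by TPM depend on that scaling. Of its reads in KO MEFs 94.9%, and in WT MEFs 95.5%, were assigned to transcript Bgn-201.

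Dcn and Aspn, the other members of class I, varied by 3.82 and 2.94 times between the highest and lowest MEF line. Decorin coats collagen I fibrils and binds TGF-β, and asporin is a related protein that lacks the usual attachment site for a sugar chain and also binds collagen and TGF-β. Dcn had 132, 77.3, 101.2, 51.6 and 68.5 CPM in KO MEFs 1 to 5 and 49.1, 188 and 58.7 CPM in WT MEFs 1 to 3. It was highest in WT MEFs 2, then in KO MEFs 1 and KO MEFs 3, and the groups overlapped. Aspn had 465, 166, 396, 185 and 198 CPM in KO MEFs 1 to 5 and 238, 393 and 489 CPM in WT MEFs 1 to 3. Its 4 high lines were WT MEFs 3, KO MEFs 1, KO MEFs 3 and WT MEFs 2, and again the groups overlapped. Salmon assigned all Dcn reads of a library either to Dcn-201 (4 libraries) or to Dcn-202 (6 libraries). Both transcripts have 1758 bases, so this split is not read as a change of isoform, and the summed gene value is used.

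**Figure D1:**
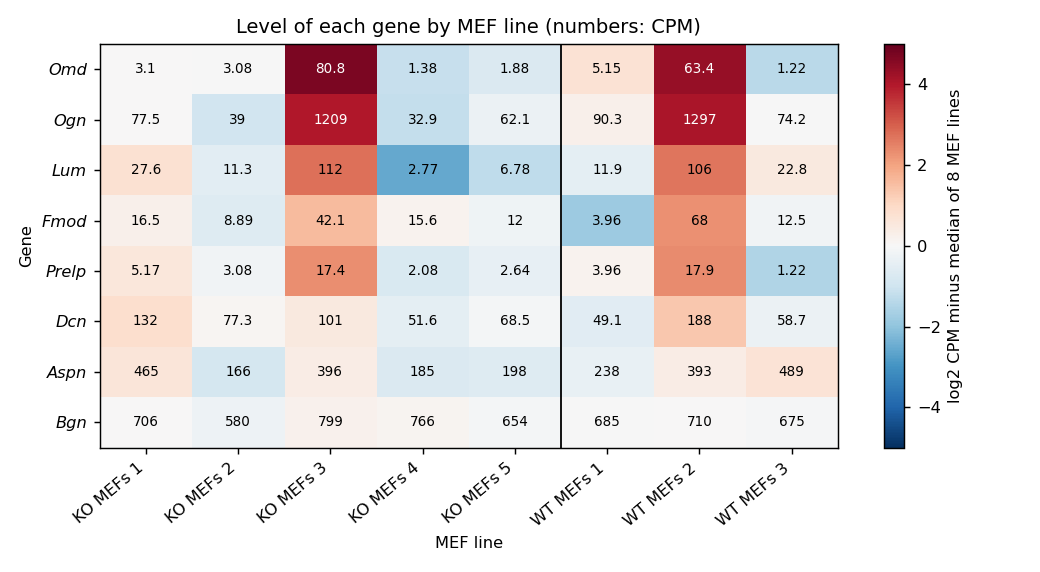
Levels of the 8 genes (rows) in each MEF line (columns, KO lines left of the vertical line and WT lines right of it). Numbers are CPM, and colour is the log2 difference from the gene's median over the 8 lines. Omd, Ogn, Lum, Fmod and Prelp are highest in KO MEFs 3 and WT MEFs 2, while Bgn stays between 579.7 and 799 CPM.

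Ogn and Omd were the members that varied most between MEF lines, and both were high in the same KO line and the same WT line. Osteoglycin is a class III member found in bone, vessel walls and cornea, and osteomodulin is a keratan sulfate proteoglycan of bone that binds collagen. Ogn had 77.5, 39.0, 1209, 32.9 and 62.1 CPM in KO MEFs 1 to 5 and 90.3, 1297 and 74.2 CPM in WT MEFs 1 to 3. KO MEFs 3 and WT MEFs 2 stood far above the other 6 lines, which lay between 32.9 and 90.3 CPM. Omd had 3.10, 3.08, 80.8, 1.38 and 1.88 CPM in KO MEFs 1 to 5 and 5.15, 63.4 and 1.22 CPM in WT MEFs 1 to 3. The same lines were high, and the others had 4 to 13 counts each. By the SD of log2 CPM over the 8 lines, 2.15 for Omd and 2.09 for Ogn, these genes ranked 60 and 71 from the most variable of 9921.

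Lum, Fmod and Prelp of class II were also highest in KO MEFs 3 and WT MEFs 2. Lumican keeps collagen fibrils thin in cornea and skin, fibromodulin does so in tendon, and PRELP, whose basic end binds heparin, links basement membranes to collagen. Lum had 27.6, 11.3, 112, 2.77 and 6.78 CPM in KO MEFs 1 to 5 and 11.9, 106 and 22.8 CPM in WT MEFs 1 to 3. Fmod had 16.5, 8.89, 42.1, 15.6 and 12.05 CPM in KO MEFs 1 to 5 and 3.96, 68.0 and 12.5 CPM in WT MEFs 1 to 3. Prelp had 5.17, 3.08, 17.4, 2.08 and 2.64 CPM in KO MEFs 1 to 5 and 3.96, 17.9 and 1.22 CPM in WT MEFs 1 to 3. For each of these genes KO MEFs 3 and WT MEFs 2 were the highest lines of their groups, and the groups overlapped. The SD of log2 CPM was 1.75 for Lum, 1.21 for Fmod and 1.19 for Prelp, which ranked 135, 386 and 394 of 9921.

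In summed TPM, KO MEFs 3 and WT MEFs 2 were above the other MEF lines. Summed over the 8 members, TPM was 1181 in KO MEFs 3 and 1248 in WT MEFs 2, and lay between 461 and 652 in the other 4 KO lines and the other 2 WT lines. Ogn took 30.4% of the sum in KO MEFs 3 and 32.6% in WT MEFs 2, rank 2 after Bgn, and 1.64% to 4.67% with rank 4 in each of the other 6 lines. Aspn or Dcn held rank 2 there, Aspn in 5 lines and Dcn in KO MEFs 2. Omd took 2.63% in KO MEFs 3 and 2.08% in WT MEFs 2 and at most 0.537% elsewhere. In mean TPM over the 8 lines the order was Bgn (422 ± 60.0), Ogn (109 ± 170), Aspn (85.6 ± 36.6), Dcn (62.5 ± 37.3), Lum (14.6 ± 18.0), Fmod (11.1 ± 11.6), Omd (7.98 ± 12.8) and Prelp (3.19 ± 3.52; SD, n = 8). By TPM Bgn stood above the rest in every line. The order among Ogn, Aspn and Dcn, and likewise among Lum, Fmod, Omd and Prelp, was not the same in every line and was not tested.

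**Figure D2:**
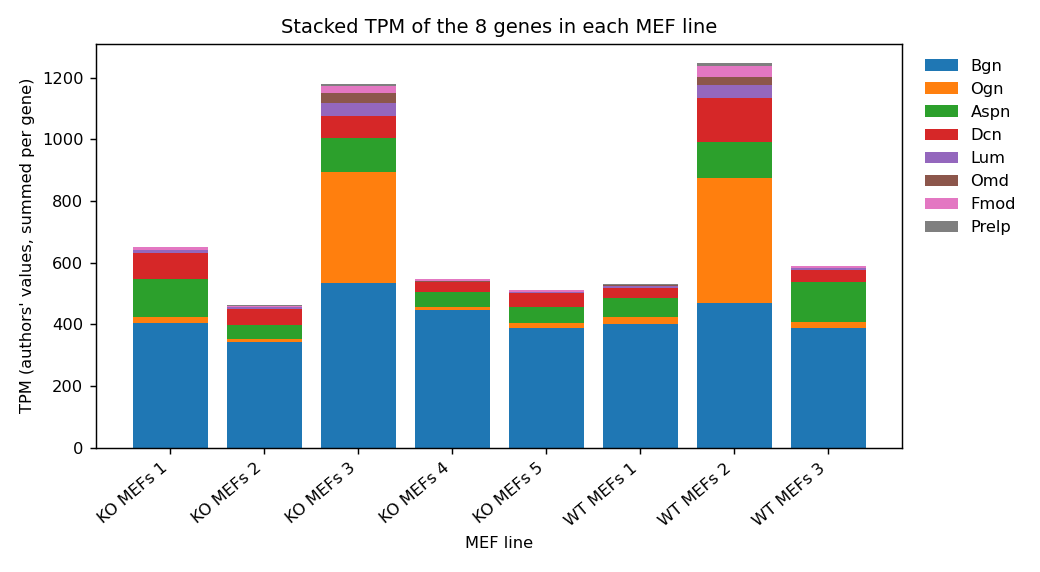
Deposited TPM of the 8 genes, summed per gene and stacked, in each MEF line, with KO lines left of WT lines. Bgn is the base of every bar and the largest part by TPM, and the bars of KO MEFs 3 (1181) and WT MEFs 2 (1248) are raised mainly by Ogn.

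Other genes and marker sums moved with KO MEFs 3 and WT MEFs 2. Hoxd13, a HOX gene of the distal limb and the tail end of the body, was at 209 CPM in KO MEFs 3 and 249 CPM in WT MEFs 2, against 4.15 to 32.5 CPM in the other 6 MEF lines. Foxc1, a mesenchymal transcription factor, was at 210 and 175 CPM in these lines and at 9.9 to 42.8 CPM in the others. Col3a1, a fibrillar collagen, was at 4873 and 4119 CPM against 956 to 2037 CPM, while among the other fibroblast markers Thy1, a surface protein of fibroblasts, was at 129 and 103 CPM against 557 to 747 CPM and Twist2, a transcription factor of dermal mesenchyme, at 50.8 and 51.6 CPM against 130 to 165 CPM. The 8 fibroblast markers summed to 21295 and 14151 CPM, against 13448 to 19935 CPM. The 5 tendon markers, none at 0 in any MEF line, summed to 165 CPM in KO MEFs 3, the lowest MEF line, and to 244.5 CPM in WT MEFs 2, inside the 210.4 to 338 CPM of the other lines. Among them Tnmd was at 6.78 and 8.23 CPM against 58.0 to 142 CPM, while the defining factor Scx was at 12.1 CPM in KO MEFs 3, the highest line, and 2.51 CPM in WT MEFs 2, against 1.71 to 6.02 CPM. The 7 cartilage markers summed to 279.8 and 357 CPM against 97.8 to 182 CPM, mostly from Sox9 (228 and 339 CPM against 85.5 to 182 CPM), with 3 of 7 at 0 in KO MEFs 3 and 1 of 7 at 0 in WT MEFs 2. The 6 smooth muscle and pericyte markers summed to 1848 and 1970 CPM, against 3346 to 5607 CPM in the other lines, with none of the 6 at 0 in the MEF groups. The low sums came mostly from Acta2 (1257 and 1286 CPM against 2551 to 3997 CPM), and Tagln and Cnn1 were also lowest in these lines. Rgs5 went the other way, at 20.8 and 50.5 CPM against 3.44 to 20.77 CPM. Myh11 and Notch3 lay inside the range of the other lines. The 5 meninges markers summed to 262 and 229 CPM against 47.5 to 95.03 CPM, mostly from Foxc1, with Slc6a13 at 0 in all 8 MEF lines. Bone markers (7 genes) summed to 30.0 to 39.96 CPM in KO MEFs, with 4 of 7 at 0, and 30.1 to 49.8 CPM in WT MEFs, with 5 of 7 at 0. The 7 macrophage and blood markers summed to 15.5 CPM in KO MEFs 3, the lowest MEF line, and 157 CPM in WT MEFs 2, the highest. The part of these differences in the levels of the proteoglycan genes was not tested.

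Pairs of members were compared across lines in log2 CPM with Pearson's r, Spearman's rho and exact two-sided permutation tests, in 28 pairs. Over all 8 MEF lines r was positive in 28 of 28 pairs, with a median of 0.70. By Benjamini-Hochberg adjusted exact permutation p over the 28 pairs, 2 passed 0.05 for r. They were Prelp and Omd (r = 0.97, adjusted p = 0.019, for rho 0.032) and Lum and Ogn (r = 0.91, adjusted p = 0.0375, for rho 0.101). Because KO MEFs 3 and WT MEFs 2 form a cluster of their own, r is also given over the other 6 lines. There r was positive in 18 of 28 pairs, with a median of 0.25 and a range from -0.73 (Fmod and Omd) to 0.83 (Prelp and Omd). For Prelp and Omd rho was 0.94, with a raw p of 0.0431 for r and 0.0167 for rho, and a Benjamini-Hochberg adjusted exact permutation p over the 28 pairs of 0.747 for r and 0.467 for rho. Without KO MEFs 1 and WT MEFs 3, the lines farthest from the median of Prelp, r of this pair was 0.99 over only 4 lines. Over these 6 lines no pair passed 0.05 after adjustment, by r or by rho. For the neighbours Omd and Ogn r was 0.41 (rho 0.60, raw exact permutation p of 0.388 and 0.242, adjusted p of 0.898 and 1), and without KO MEFs 2 and KO MEFs 4, the lines farthest from the median of Ogn, it was 0.73. For Aspn and Omd, the other neighbours, r was -0.14 (rho -0.09, raw exact permutation p of 0.779 and 0.919, adjusted p of 0.927 and 1), and 0.56 without KO MEFs 1 and WT MEFs 3. Over 6 lines, or 4 where the farthest lines were also left out, with 4 to 13 counts of Omd each, these values are imprecise.

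Between H3f3a KO and WT MEFs no member passed the test. By edgeR's quasi-likelihood test 0 of 8 members had an adjusted p under 0.05, against 1 of 10785 genes (0.00927%), H3f3a itself, with 175 genes under 0.05 before adjustment and no member among them. DESeq2 called 0 of the 6 members for which it gave an adjusted p, all but Ogn and Omd. The lines of the groups overlapped for all 8, against 198 of 10785 genes (1.84%) whose KO and WT lines did not overlap. The log2 difference of Bgn was 0.02 ± 0.14 (SE), with a 95% interval from -0.29 to 0.33, on means of 701 ± 87.8 CPM in KO MEFs (SD, n = 5) and 689.9 ± 18.0 CPM in WT MEFs (SD, n = 3; edgeR adjusted p = 1.00). For Aspn it was -0.41 ± 0.40 (-1.32 to 0.50), on 282 ± 138 CPM in KO MEFs and 373 ± 127 CPM in WT MEFs, and for Dcn -0.20 ± 0.48 (-1.29 to 0.88), on 86.1 ± 31.3 CPM in KO MEFs and 98.5 ± 77.3 CPM in WT MEFs. For the members that were high in 1 line of each group the intervals were wide, from -4.23 to 2.66 for Ogn, -4.13 to 3.31 for Omd, -3.26 to 2.11 for Lum, -2.50 to 1.33 for Fmod and -2.47 to 1.71 for Prelp. At this spread, changes of several-fold in these genes were not detectable. The median log2 difference of the 8 members was -0.41, with 1 of 8 above 0, beside a median of -0.00 over all genes tested. Permuting the lines exhaustively, two-sided and on log2 CPM, gave exact p from 0.268 (Aspn) to 1, where 0.0179 is the smallest p that 56 arrangements allow.

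The sign of 6 of these differences turned when WT MEFs 2 was left out. Without that line the log2 difference, KO minus WT, was 0.68 for Dcn, 1.79 for Ogn, 0.85 for Lum, 1.16 for Fmod, 1.22 for Prelp and 2.50 for Omd, all above 0, while with all 8 lines it was below 0. Aspn stayed below 0 whichever line was left out (-0.66 to -0.16). The replicate block, given among the alternatives at the end, also turned the sign of Dcn, Lum, Fmod and Prelp. With both KO MEFs 3 and WT MEFs 2 left out, Dcn was at 0.61, Fmod at 0.65 and Prelp at 0.37, Ogn at -0.64, Lum at -0.53 and Aspn at -0.52, Bgn at -0.0074, and Omd was below the filter on low counts. None of these values had an adjusted p under 0.05 in edgeR.

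**Figure D3:**
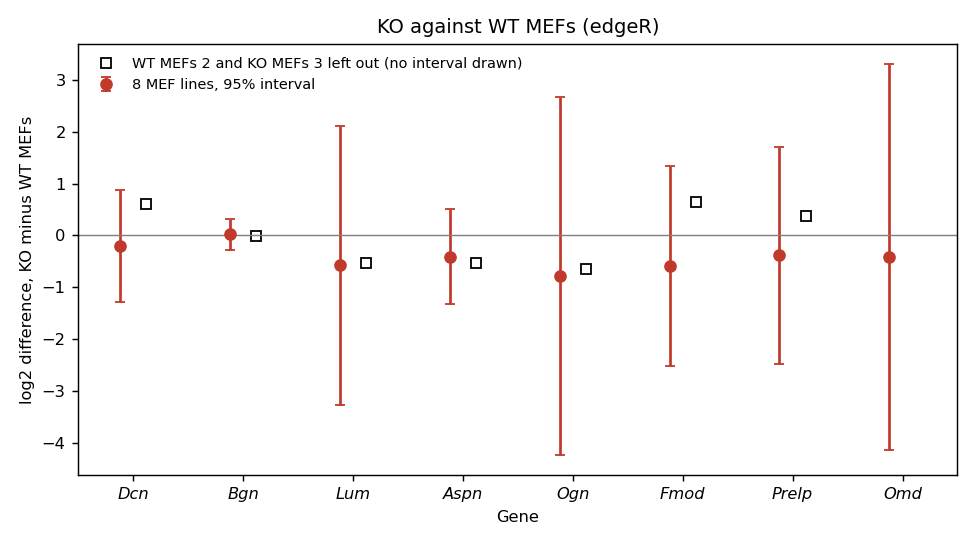
Log2 difference, KO minus WT MEFs, for each gene from edgeR. Filled circles with bars are the values with 95% intervals over 5 KO and 3 WT lines, and open squares are the values without KO MEFs 3 and WT MEFs 2 (none for Omd, which was then below the filter). All intervals include 0, and that of Bgn, from -0.29 to 0.33, is the narrowest.

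In neurospheres most of the 8 members were at or near 0 in both genotypes, and none of the 8 passed the filter on low counts of the KO against WT comparison. Counts in KO neurospheres 1 to 3 were 0, 0 and 1 for Dcn, 1, 1 and 0 for Bgn, and 0, 0 and 1 for Lum, and in WT neurospheres 1 to 3 they were 12, 0 and 0 for Dcn, 7, 0 and 0 for Bgn, and 2, 0 and 0 for Lum. Most of these counts thus came from WT neurospheres 1, which also held 25 counts of Col1a1 and 41 of Col3a1, against at most 2 and 1 in the other 5 lines. Aspn and Fmod had 0 counts in all 6 lines, Ogn had 1 count, in WT neurospheres 3, and a count of 0 allows up to 3 counts, or 1.05 to 1.80 CPM in KO and 1.06 to 1.40 CPM in WT lines. Omd had 1, 0 and 2 counts in KO neurospheres and 4, 0 and 4 counts in WT neurospheres. Floors and counting intervals cover counting error only, since copies made by PCR cannot be told apart.

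Prelp was the member with the most counts in neurospheres, and its KO and WT lines did not overlap. It had 7, 9 and 11 counts (2.88, 5.39 and 3.84 CPM) in KO neurospheres 1 to 3 and 5, 5 and 0 counts (1.91, 2.33 and 0 CPM) in WT neurospheres 1 to 3. The ratio of pooled CPM, KO over WT, was 2.94, with a 95% counting interval from 1.38 to 6.81. The exact two-sided permutation test gave p = 0.1, the smallest that 3 lines against 3 allow, and 765 of 10624 genes tested (7.2%) had KO and WT lines that did not overlap. In edgeR 1 gene, H3f3a, had an adjusted p under 0.05 (0.00941%), and 227 had an unadjusted p under 0.05. When all 14 libraries were fitted together, all 8 members passed the filter and 0 were called by edgeR.

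**Figure D4:**
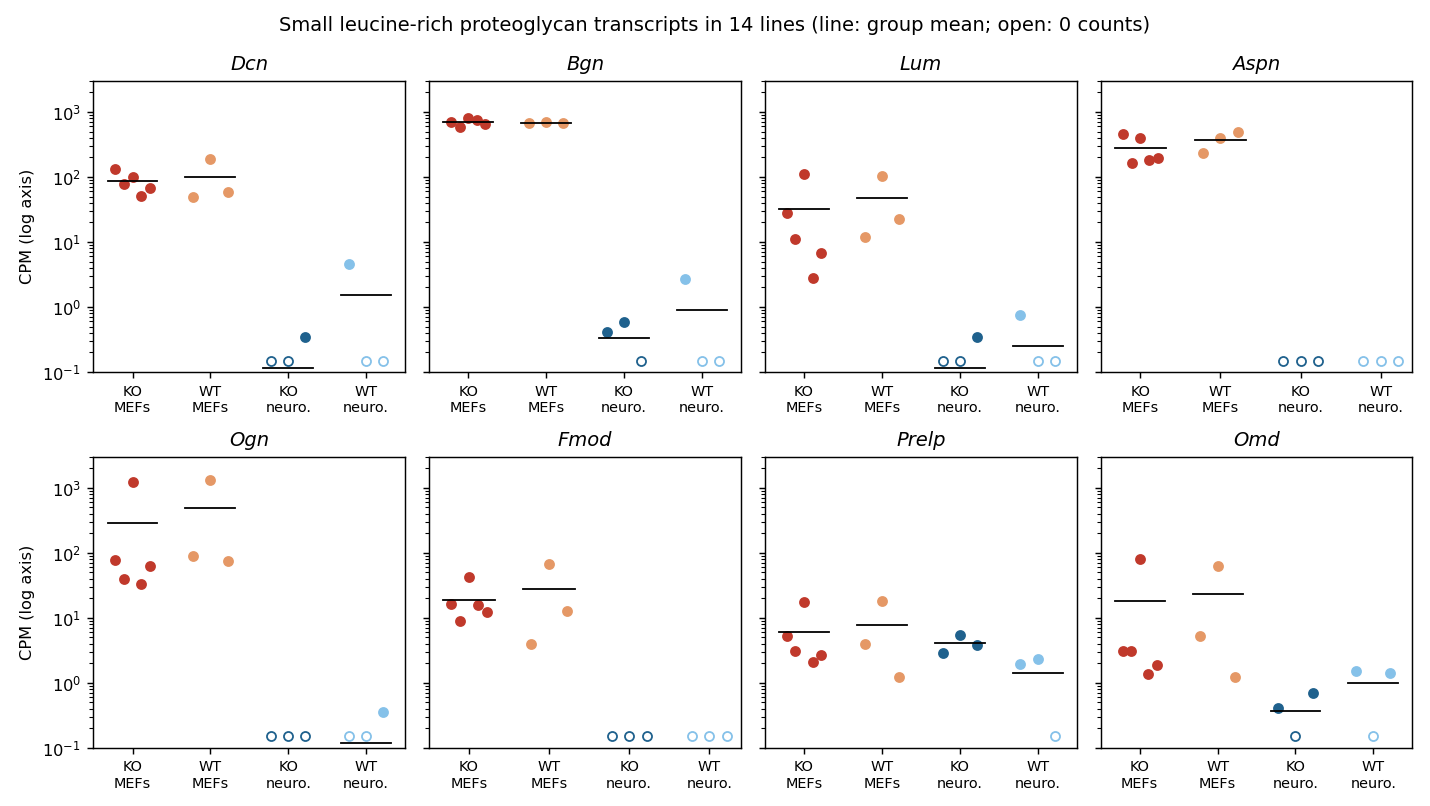
CPM of each gene (log axis) in every line, with KO left of WT within MEFs and within neurospheres. Filled points are lines with at least 1 count, open points lines with 0 counts drawn at the bottom of the panel, and bars group means. In MEFs all lines have counts of all 8 genes, and in neurospheres Prelp has counts in 5 of 6 lines.

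Most members that could be tested between cell types were higher in MEFs. Between WT lines 6 of 8 members passed the filter and all 6 were higher in MEFs by edgeR, against a background of 41.6% of 11080 genes called, 20.8% higher and 20.8% lower in MEFs. Between KO lines 7 members passed and 6, all but Prelp, were higher in MEFs, against 51.6% of 11413 genes called, 26.2% higher and 25.4% lower. Members that pass this filter through the MEF lines alone had to differ. These counts, and the p-values and calls of single members below, thus describe the genes and support no statement about the family. Bgn differed by a log2 of 10.99 ± 0.42 between KO MEFs and KO neurospheres (SE, edgeR adjusted p = 3.5e-07) and by 9.46 ± 0.83 between WT MEFs and WT neurospheres (adjusted p = 0.00029). Dcn differed by 8.80 ± 0.65 between the KO groups (adjusted p = 6.9e-06) and by 5.91 ± 1.13 between the WT groups (adjusted p = 0.0058), where 12 counts of WT neurospheres 1 set the lower level. The ratio of pooled CPM of Dcn in WT lines was 61.8, with a 95% counting interval from 35.2 to 120. Without WT neurospheres 1 the WT neurospheres held 0 counts of Dcn and Bgn, and both calls remained (edgeR adjusted p of 0.00841 to 0.0217 for Dcn and 0.000278 to 0.00189 for Bgn over all lines left out in turn).

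For members with no counts in neurospheres the difference is a lower bound. Against 3 counts over the group, Aspn was at least 641-fold higher in KO MEFs and at least 972-fold higher in WT MEFs, and Fmod at least 41.1-fold higher in KO and at least 70.8-fold higher in WT MEFs. Ogn was at least 535-fold higher in KO MEFs, and in WT lines its ratio was 3610.0, with a counting interval from 648 to 142623, on 1 count in neurospheres. Lum had ratios of 192 (34.2 to 7592) on 1 count in KO and 176 (48.5 to 1461) on 2 counts in WT neurospheres. The sizes for Ogn, Lum and Fmod were smaller without the MEF lines that stood apart. In ratios added after seeing the data, leaving out KO MEFs 3 gave at least 122-fold for Ogn, at least 591-fold for Aspn, at least 30.8-fold for Fmod and a ratio of 85.1 (15.02 to 3385) for Lum between KO groups. Leaving out WT MEFs 2 gave a ratio of 616 (110.1 to 24391) for Ogn, at least 961-fold for Aspn, at least 22.2-fold for Fmod and 68.5 (18.5 to 573) for Lum between WT groups. Of these 4 genes Aspn changed least. Without WT neurospheres 1 the bound in WT lines was at least 162-fold for Dcn, 1141-fold for Bgn and 77.0-fold for Lum. These genes passed the filter through the MEF lines alone and had to differ, so their p-values and calls are a description. The edgeR adjusted p was 0.0098 for Lum, 4.9e-05 for Aspn, 0.013 for Ogn and 0.00082 for Fmod between KO groups, and 0.0048, 0.00019, 0.0037 and 0.022 in the same order of genes between WT groups. Ogn lost its call between KO groups without a filter on low counts (adjusted p = 0.0855) and without KO neurospheres 3 (0.0529), Lum without KO neurospheres 3 (0.0680), and Fmod between WT groups without the filter (0.106) and without WT neurospheres 1 (0.0563). With 1 line left out Fmod could be tested between WT groups in only 4 of the fits, and under the stricter filter it was not tested there.

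Prelp and Omd, the least abundant members in most MEF lines, were closest to the neurosphere level. Prelp averaged 6.08 ± 6.45 CPM in KO MEFs (n = 5) and 4.04 ± 1.27 CPM in KO neurospheres (SD, n = 3), a log2 difference of 0.55 ± 0.75 (95% interval -1.12 to 2.21, edgeR adjusted p = 0.563). Without KO MEFs 3 it was -0.33. Between WT lines it was not tested, with a ratio of pooled CPM of 5.64 (2.88 to 12.3), and its lines overlapped. Omd was not tested by edgeR in either genotype. Its ratio of pooled CPM was 33.5 (11.3 to 164) between KO groups and 21.4 (10.6 to 50.2) between WT groups, whose lines overlapped. The KO groups were apart only by 4 counts in KO MEFs 4 against 2 in KO neurospheres 3 (exact two-sided permutation p = 0.0714). How many of all genes were apart there was not counted. In lines other than KO MEFs 3 and WT MEFs 2 Omd had 4 to 13 counts, and its ratio was 5.51 (1.695 to 28.4) without KO MEFs 3 and 2.77 (1.13 to 7.43) without WT MEFs 2. For Prelp in WT lines the ratio without WT MEFs 2 was 1.83 (0.755 to 4.60).

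No difference of the KO effect between cell types was found. The interaction, the KO minus WT difference in MEFs less that in neurospheres, had 0 of 12113 genes with an adjusted p under 0.05 in edgeR (0%), with 366 under 0.05 by unadjusted p, and 3 genes called by DESeq2. No member was called by either tool. The interaction could be estimated for the 5 members with counts in all 4 groups, and was 2.89 ± 1.90 for Dcn, 1.54 ± 1.20 for Bgn, 0.14 ± 2.02 for Lum, -1.88 ± 1.45 for Prelp and 0.80 ± 2.97 for Omd (log2, SE, edgeR adjusted p = 1.00). Without WT neurospheres 1, when the WT neurospheres held 0 counts of Dcn, Bgn and Lum, the fitted value was -2.18 for Dcn, -2.80 for Bgn and -2.55 for Lum.

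The neighbours on chromosome 13 differed in which lines were high. KO MEFs 3 and WT MEFs 2 had the highest values of Omd and Ogn, while Aspn, the next gene upstream, was as high in KO MEFs 1 (465 CPM) and WT MEFs 3 (489 CPM) as in these lines. Ecm2, a related matrix protein gene next to Aspn, went the other way between cell types. It had 1.72, 1.71, 4.36, 3.12 and 0.376 CPM in KO MEFs 1 to 5 and 15.6, 2.99 and 9.08 CPM in KO neurospheres 1 to 3, a log2 difference of -2.08 ± 0.66 (edgeR adjusted p = 0.024). In WT MEFs 1 to 3 it had 0, 5.37 and 0.609 CPM and in WT neurospheres 1 to 3 21.4, 13.97 and 21.6 CPM, a log2 difference of -3.25 ± 0.92 (edgeR adjusted p = 0.026). Ecm2 was below the filter between KO and WT MEFs, so it was tested through neurospheres and its calls are a description. KO MEFs 3 and WT MEFs 2 were its highest MEF lines too, on 9 and 15 counts. Cenpp, whose exons overlap Aspn on the opposite strand, was also highest in these lines. It was at 29.0 CPM in KO MEFs 3 and 26.5 CPM in WT MEFs 2, against 8.66 to 21.9 CPM in the other MEF lines. Gm15851 shares exon sequence with Prelp on the opposite strand and is not used here. The library kit reads the sense strand, but whether counting used strand is not given in the sources used here.

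**Figure D5:**
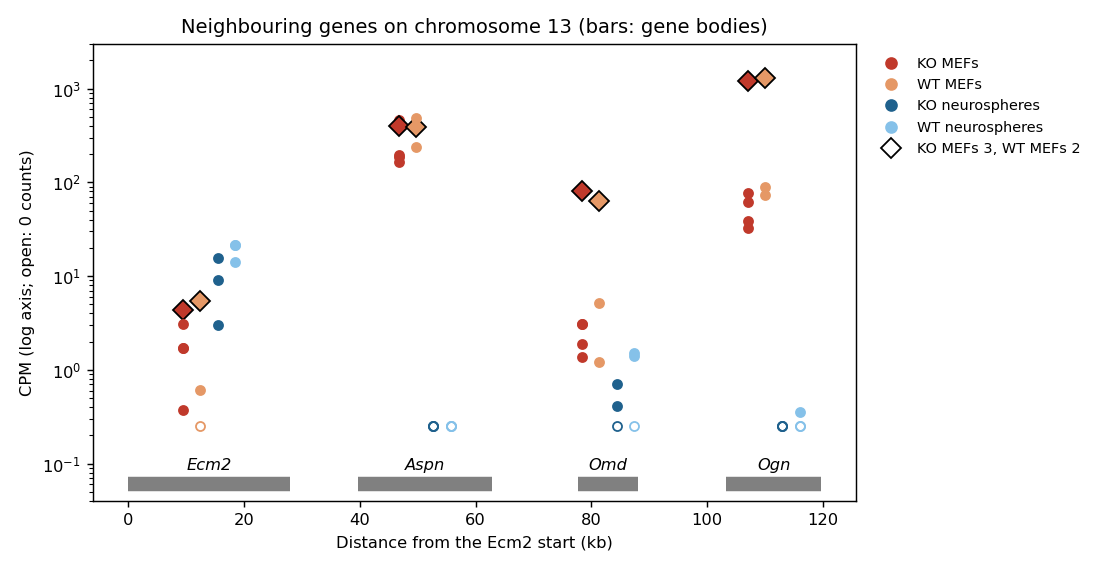
CPM (log axis) of 4 neighbouring genes on chromosome 13, placed by distance from the start of Ecm2 in kb, with grey bars for gene bodies. For each gene the columns of points are, left to right, KO MEFs, WT MEFs, KO neurospheres and WT neurospheres, diamonds are KO MEFs 3 and WT MEFs 2, and open points have 0 counts. The diamonds are apart from the other MEF lines at Omd and Ogn and among them at Aspn. At Ecm2 they are the highest MEF lines, at low CPM.

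Other proteins that act with the family were described by lists. Of the 15 collagens and fibre genes that its members bind, 15 of 15 tested were higher in KO MEFs than in KO neurospheres and 14 of 14 tested higher in WT MEFs than in WT neurospheres, with a median log2 difference of 7.32 and 7.42, beside 0.01 and -0.02 over all genes tested and 26.2% and 20.8% of genes called higher. In the comparison of KO with WT neurospheres 5 of the 15 passed the filter, so many of these genes are tested here through MEFs alone, had to differ, and are counted as a description. Col5a1, a chain of the collagen that starts fibrils, averaged 662 ± 200 CPM in WT MEFs and 3.64 ± 0.897 CPM in WT neurospheres, and Fbn1, the microfibril protein, 524 ± 106 CPM in KO MEFs and 5.91 ± 1.105 CPM in KO neurospheres. Col6a1 averaged 156 ± 97.0 CPM in WT MEFs and 0.127 ± 0.220 CPM in WT neurospheres. Col1a1 averaged 6405 ± 1168 CPM and Col1a2 6617 ± 1367 CPM in KO MEFs, against 0.391 ± 0.413 and 0.432 ± 0.378 CPM in KO neurospheres. Of proteases known to cut these proteins or their partners, 8 of 10 tested were higher in KO MEFs and 6 of 8 in WT MEFs, and none was lower. The same limit holds for these counts. Mmp14, a membrane-bound collagenase, averaged 639.5 ± 41.5 CPM in KO MEFs and 25.9 ± 20.1 CPM in KO neurospheres. Mmp2, a gelatinase, averaged 51.7 ± 26.1 CPM in KO MEFs and was at 0 in all 3 KO neurosphere lines, and Adamts1 averaged 354 ± 227 CPM in KO MEFs and 20.2 ± 9.80 CPM in KO neurospheres. Mmp9 averaged 13.1 ± 7.72 CPM in WT MEFs and 0.491 ± 0.426 CPM in WT neurospheres.

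Among enzymes that build the sugar chains, genes were called in both directions. Of 22 chondroitin and dermatan sulfate genes 20 were tested. In KO MEFs 8 were higher and 2 lower, beside 26.2% of all genes called higher and 25.4% called lower. In WT MEFs 8 were higher and 1 lower, beside 20.8% of all genes called higher and 20.8% called lower. In either direction 51.6% of all genes were called between KO groups and 41.6% between WT groups. These counts are no result about the list, and the genes below are described one by one. Dse, the epimerase that turns chondroitin into dermatan sulfate, averaged 114 ± 28.7 CPM in KO MEFs and 3.49 ± 0.622 CPM in KO neurospheres (log2 difference 4.97 ± 0.31, edgeR adjusted p = 2.7e-06). Xylt1, which attaches the first sugar to the core protein, went the other way, with 11.4 ± 5.29 CPM in KO MEFs and 234 ± 72.3 CPM in KO neurospheres (-4.39 ± 0.35, edgeR adjusted p = 1.1e-05). Chst14, the dermatan sulfotransferase, averaged 36.3 ± 10.2 CPM in WT MEFs and 1.61 ± 1.84 CPM in WT neurospheres, and Chst12, a chondroitin sulfotransferase, 11.8 ± 3.23 CPM in KO MEFs and 1.46 ± 0.548 CPM in KO neurospheres. Of 7 keratan sulfate genes 4 were tested, and all 4 were called, 2 higher and 2 lower in MEFs in each genotype, beside the same shares of all genes. So few genes are likewise described one by one. B4galt1 averaged 108 ± 8.55 CPM in KO MEFs and 2.41 ± 2.87 CPM in KO neurospheres, and Chst2 averaged 97.5 ± 66.4 CPM in WT MEFs and 460 ± 206 CPM in WT neurospheres. B4galt4 averaged 6.74 ± 2.39 CPM in KO MEFs and 16.6 ± 2.80 CPM in KO neurospheres, and Chst1 9.52 ± 3.49 CPM in KO MEFs and 2.72 ± 1.68 CPM in KO neurospheres. All of these passed 0.05 in edgeR. Between KO and WT neurospheres Dse, Chst12, Chst14, B4galt1 and Chst1 were below the filter on low counts. They entered the cell type tests through MEFs, so their calls are given as a description.

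Proteoglycans of other families were called in both directions. Of 15 tested core protein genes 6 were higher and 6 lower in KO MEFs, and 5 higher and 6 lower in WT MEFs, beside the same 51.6% and 41.6% of all genes called. Ncan and Bcan were below the filter between KO and WT MEFs, so they were tested through neurospheres and had to differ. These counts are thus a description and no result about the list. Ncan (neurocan) and Bcan (brevican), proteoglycans of brain matrix, averaged 0.234 ± 0.221 and 0 CPM in KO MEFs and 765 ± 137 and 534 ± 104 CPM in KO neurospheres. Sdc1, a cell surface syndecan, averaged 60.0 ± 6.69 CPM in WT MEFs and 6.24 ± 2.10 CPM in WT neurospheres, and the glypican Gpc4 56.2 ± 2.46 CPM in KO MEFs and 5.02 ± 0.874 CPM in KO neurospheres. Among 9 further small leucine-rich family genes 2 were tested, Ecm2 and Podn, and Podn (podocan) averaged 14.6 ± 17.6 CPM in KO MEFs and 0.254 ± 0.222 CPM in KO neurospheres (edgeR adjusted p = 0.0080). Its call is a description, since Podn passed the filter through MEFs alone. Podn was at 45.0 CPM in KO MEFs 3 and 36.5 CPM in WT MEFs 2 and at 3.76 to 14.8 CPM in the other 6 MEF lines. Of the growth factors and receptors that the family binds, 10 were tested. In KO MEFs 5 were higher and 2 lower, beside 26.2% of all genes called higher and 25.4% called lower. In WT MEFs 4 were higher and 2 lower, beside 20.8% and 20.8%. Between KO and WT neurospheres 6 of the list passed the filter, so these counts are a description and no result about the list. Tgfb3 averaged 109 ± 39.3 CPM in KO MEFs and 4.79 ± 2.99 CPM in KO neurospheres. Egfr, which decorin binds, averaged 104 ± 8.997 CPM in KO MEFs and 480.3 ± 126 CPM in KO neurospheres, and the related Erbb4 0.138 ± 0.188 CPM in KO MEFs and 121 ± 58.4 CPM in KO neurospheres.

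In the KO against WT comparisons none of the 7 lists had a gene with an adjusted p under 0.05 in edgeR, in MEFs or in neurospheres. In MEFs their median log2 differences lay between -0.17 and 0.08, beside -0.00 over all genes. Col1a2 averaged 6617 ± 1367 CPM in KO MEFs and 6169 ± 1870 CPM in WT MEFs, Dse 114 ± 28.7 CPM in KO and 133 ± 19.7 CPM in WT MEFs, and Mmp14 639.5 ± 41.5 CPM in KO and 578 ± 75.8 CPM in WT MEFs. In neurospheres Ecm2, the family gene with the most counts there, averaged 9.24 ± 6.33 CPM in KO lines and 19.0 ± 4.35 CPM in WT lines, a log2 difference of -1.003 ± 0.513 (SE, 95% interval -2.17 to 0.17, edgeR adjusted p = 0.999). Ncan averaged 765 ± 137 CPM in KO and 867 ± 287 CPM in WT neurospheres, and Xylt1 234 ± 72.3 CPM in KO and 232 ± 60.2 CPM in WT neurospheres.

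The genes whose log2 CPM was most like that of a member over the 8 MEF lines differed from member to member. For Ogn they were Rbm43, C1ra and Tmem106b, with r of 0.997, 0.994 and 0.991, and over the 6 lines without KO MEFs 3 and WT MEFs 2 r was 0.956, 0.906 and 0.913. For Omd they were Fndc3a, Twsg1 and Pitx1 (r of 0.993, 0.993 and 0.992 over 8 lines), and for Lum Cd47, Pik3ip1 and Cyp26b1 (0.987, 0.986 and 0.982). For Fmod they were Cdkn1b, Evc and Dexi (0.981, 0.975 and 0.974), and for Prelp they included Adgrl2 and Iqsec1 (0.977 and 0.975). For Dcn they were Ebf3, Hjurp and Zranb3 (0.939, 0.933 and 0.927), for Aspn Morf4l1, Stx5a and Emc10 (0.970, 0.969 and 0.964), and for Bgn Jkamp, Snrpn and Cnppd1 (0.969, 0.959 and 0.940). None of the genes named was on the lists of more than 1 member. These values are the highest of 9921 genes over few lines that share 2 outlying libraries, and they describe these lines only.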

How the data were processed

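Libraries were made with the QuantSeq 3′ FWD kit, per the labels' protocols. Each library's deposited table gives expected counts per transcript, which the authors estimated with Salmon 1.1.0, per the submitters' processing notes, which also name edgeR, and TPM, which the authors deposited beside the counts, scaled by transcript length and depth. The transcript set and the options of that run are not stated. Transcripts were matched to GENCODE M21 (GRCm38): of 116945, 115560 matched with version and length, 385 by identifier alone, and 1000 were left out, with 0.251% to 0.425% of reads. Expected counts were summed per gene and rounded. Promoters come from RefSeq (GRCm38.p6).

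Each comparison was fitted over all genes with edgeR 4.0.16 in R 4.3.3 (TMM, default filter by group, robust quasi-likelihood test, Benjamini-Hochberg adjustment, threshold 0.05, no block), and the test was checked on simulated counts. Pairs of members used log2 CPM with a prior count of 2. Where a library had 0 counts, up to 3 were allowed for, and intervals are at 95%. Alternatives were DESeq2 1.42.0, its size factors, no filter, a stricter filter (5 CPM), log2(TPM + 1) in limma 3.58.1, all libraries in 1 fit, the replicate block, Ddx3y as a covariate for sex, and lines left out. The 6-line values for pairs, leaving out lines for pairs, and pooled ratios without KO MEFs 3, WT MEFs 2 or WT neurospheres 1 were added after seeing the data.

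The members and lists were chosen with earlier results of these data known. By the rule for named genes, all members are named, then up to 3 passing genes of each list by adjusted p or, where none passes, up to 2 with the highest mean CPM, and the 3 genes most like each member, of which 1 is not reported here. Hoxd13, Foxc1, Col3a1, Tnmd, Scx, Sox9, Thy1, Twist2, Cenpp, Acta2, Tagln, Cnn1, Rgs5, Myh11 and Notch3 were named after their values were seen.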

Additional observations from a re-analysis of the deposited data

Results flagged for a closer look

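In the 5 KO MEF lines, KO MEFs 3 was far from the others in 5 of the 8 members. In CPM its gap to the nearest line took up over 0.71 of the range of the group. That is Dixon's 95% limit for 5 samples, which chance passes in about 1 of 20 groups of normally distributed values. The rule was not applied to log2 CPM, where a gap above the other lines takes up less of the range. It had 1209 CPM of Ogn, where the other 4 lines had 32.9 to 77.5 CPM, and 80.8 CPM of Omd, where they had 1.38 to 3.10 CPM. Lum was at 112 CPM in KO MEFs 3 and at 2.77 to 27.6 CPM in the others, Fmod at 42.1 CPM and 8.89 to 16.5 CPM, and Prelp at 17.4 CPM and 2.08 to 5.17 CPM. The 5 genes were measured in the same library, so these are not separate events. Groups of 3 lines were not examined in this way, although WT MEFs 2 had the highest value of its group in the same genes.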

How the results depend on the processing

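No member passed between KO and WT MEFs under any alternative run. In neurospheres members were tested only with no filter (6 members), with all 14 libraries in 1 fit (8), and without WT neurospheres 2 or KO neurospheres 1 (1 each), and none passed. In MEFs Aspn stayed below 0 under every alternative run (-0.66 to -0.16), and the sign of the other 7 members turned under at least 1, for Ogn and Omd only without WT MEFs 2. With the replicate block the log2 difference, KO minus WT, was 0.34 for Dcn, -0.0018 for Bgn, 0.35 for Lum, 0.46 for Fmod and 0.42 for Prelp, and 0 genes were called, H3f3a included. The numbers are not taken to pair lines, since same-numbered KO and WT MEFs had correlations of 0.05, -0.29 and -0.60 in their deviations. Without KO MEFs 3 and WT MEFs 2 it was 0.61 for Dcn, -0.0074 for Bgn, 0.65 for Fmod and 0.37 for Prelp, with 3 genes called in all. Leaving out each line gave ranges of -0.52 to 0.68 for Dcn, -0.035 to 0.080 for Bgn, -1.96 to 0.85 for Lum, -3.22 to 1.79 for Ogn, -1.10 to 1.16 for Fmod, -1.24 to 1.22 for Prelp and -0.97 to 2.50 for Omd. Between KO MEFs and KO neurospheres that range was -0.33 to 0.76 for Prelp. For the interaction it was -2.18 to 4.87 for Dcn, -2.80 to 2.15 for Bgn and -2.55 to 2.12 for Lum, and deposited TPM gave -0.80 for Lum and -0.40 for Omd. The low ends for Dcn, Bgn and Lum are fits without WT neurospheres 1. The WT neurospheres then held 0 counts of these genes, so these low ends are no estimates. The cause of the other reversals was not tested, beyond the lines whose omission turned the sign. Between cell types 5 or 6 members were higher in WT MEFs and 4 to 6 in KO MEFs under the alternatives, with 4 only without KO neurospheres 3; DESeq2 gave no adjusted p for Ogn. Of the 28 pairs, 2 passed over 8 MEF lines, 15 with deposited TPM, 0 over 6 lines, and 0 to 6 when each line was left out, 0 without WT MEFs 2, KO MEFs 3 or KO MEFs 4, 1 without KO MEFs 1 and 6 without WT MEFs 3. DESeq2 called 7 genes between KO and WT neurospheres and edgeR 1. The median log2 difference of all genes between MEFs and neurospheres was 0.08 in WT and 0.12 in KO lines with TPM, and -0.02 and 0.01 with counts, and with TPM no member changed direction between cell types. Members other than Prelp had 0 to 12 counts in each neurosphere group, and Prelp had 27 in KO and 10 in WT lines. With so few counts and 3 lines in each group, an absence of calls there does not show equal levels in KO and WT lines.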
